A study of Mus musculus with 4 samples.

Results

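This account covers 10 genes of DNA methylation and Polycomb silencing in mouse regulatory T cells (Treg cells), a class of CD4+ T cells defined by the transcription factor Foxp3 that keeps other immune cells in check. The genes are Dnmt1, Dnmt3a, Dnmt3b, Tet2, Tet3, Uhrf1, Ezh1, Ezh2, Eed and Suz12, and every probe set that the platform annotation assigns to them was taken, 28 of the 45101 probe sets on the array. Of these, 24 passed a filter on dim signals (a mean signal of about 40.5) and 4 did not, and 9 of the 10 genes had at least 1 probe set that passed. The 4 arrays held total RNA of CD4+Foxp3+ Treg cells from C57BL/6 spleen, 2 labelled Foxo1/3-deficient and 2 labelled wild-type, numbered so that pair 1 and pair 2 each hold 1 array of each genotype. Titles name both Foxo1 and Foxo3 as lost, and the genotype field names only Foxo1. The labels used here do not give the means of deletion, the age of the animals or whether each array holds a different animal, so p-values measure only the spread between these arrays.

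DNA methyltransferases place methyl groups on cytosine: Dnmt3a and Dnmt3b write new marks, and Dnmt1 copies existing marks onto the daughter strand after replication, guided there by Uhrf1. Tet2 and Tet3 oxidise methylcytosine, the first step of its removal. Polycomb repressive complex 2 (PRC2) trimethylates lysine 27 of histone H3 through the catalytic subunit Ezh2, or its paralogue Ezh1, held together with Eed and Suz12. In Treg cells, loss of methylation at an intronic enhancer of Foxp3 is a known mark of stable Foxp3 expression, and Ezh2 is known to be induced when Treg cells are activated. Dnmt1, Uhrf1 and Ezh2 are known to be expressed more in dividing than in resting cells.

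The labels were checked on the targeted genes first. Foxo1 read 6949 and 6697 on the arrays labelled Foxo1/3-deficient, against 2383 and 1254 on the wild-type arrays, so its signal went against the label on both arrays. Foxo3 read 1424 and 1308 on the labelled-deficient arrays and 1876 and 2635 on the wild-type arrays, which is the direction of the label. A probe set checks a deletion only where it reads the deleted part, and where these probe sets lie was not analysed here, so every direction that follows is that of the arrays as labelled. Foxp3 read 6504 and 6056 on the labelled-deficient arrays and 6540 and 6285 on the wild-type arrays. Markers of other cells differed in places. Of 2 CD8 T cell markers the highest signal on any array was 444. The summed signal of 4 natural killer cell markers was 1522 and 1282 on the labelled-deficient arrays and 9080 and 10902 on the wild-type arrays, nearly all of it Nkg7, which T cells can also express (7.31-fold lower, limma adjusted p = 0.00211). The receptor gene Ncr1, which defines natural killer cells, stayed at or under 37.2. For 5 macrophage and monocyte markers the sum was 9309 and 6944 on the labelled-deficient arrays and 6641 and 4254 on the wild-type arrays. Most of that sum was Csf1r. For 4 B cell markers it was 2603 and 1675, against 2236 and 755 on the wild-type arrays. With the pair number as a block, Csf1r, Adgre1 and Ms4a1 passed as higher (limma adjusted p = 0.0101, 0.000934 and 0.00494), where 5.23% of all genes did. Lyz2 and Cd14 overlapped between the groups, and Cd79a and Cd79b were lower in pair 1 and higher in pair 2. The neutrophil marker Mpo passed as lower (0.0194), at 495 on wild-type replicate 1 and at most 57.0 on the others. None of these markers stood at 0, and their part in the members' values was not tested. In bulk RNA, fewer cells of a type and less RNA per cell cannot be told apart.

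The comparison of genotypes asked whether Treg cells labelled Foxo1/3-deficient express these 10 genes at other levels than wild-type Treg cells. Uhrf1 stood furthest apart, 2.35-fold lower on the labelled-deficient arrays. Dnmt1, Ezh2, Eed and Suz12 lay lower by smaller steps, 1.23-fold to 1.36-fold on their brightest probe sets. Dnmt3a, Dnmt3b, Tet2 and Ezh1 overlapped between the groups on theirs. The probe sets of Suz12, Dnmt3a, Dnmt3b and Ezh1 disagreed in sign, and Tet3 was too dim to compare. None of the 9 measured genes passed the threshold of 0.05 on the adjusted p over all 12115 genes (limma, 0 of 9, with 1 at an unadjusted p under 0.05), where 2.57% of all genes passed it and 13% had an unadjusted p under 0.05. With the pair number as a block 1 of 9 passed, Uhrf1, where 11.6% of all genes did. The medians of the log2 differences were -0.30 over the 9 genes and -0.0034 over all genes tested.

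Uhrf1, the protein that brings Dnmt1 to half-methylated DNA behind the replication fork, had signals of 542 and 759 on the labelled-deficient arrays, against 1328 and 1765 on the wild-type arrays. The groups did not overlap, and the lower wild-type signal was well above the higher labelled-deficient one. The log2 difference was -1.23 ± 0.27 (SE, n = 2 each), with a 95% interval of -1.87 to -0.60 and a limma adjusted p of 0.0670. Within pair 1 the difference was -1.27 and within pair 2 it was -1.20, the closest match between the pairs of any of the 5 genes that were lower in both. With the pair as a block the interval narrowed to -1.61 to -0.86 and limma gave an adjusted p of 0.000105. That fit leaves fewer residual degrees of freedom, so its p-value leans more on the variance shared over genes. Over every probe set the adjusted p was 0.105 without the block and 0.00490 with it. Without wild-type replicate 1 limma gave an adjusted p of 0.0229 and without labelled-deficient replicate 1 it gave 0.320, but such a fit leaves 1 array in a group and assumes that it varies as the other group does. A second, dim Uhrf1 probe set, 1415811_at, read 51.8 and 49.8 on the labelled-deficient arrays and 75.7 and 104 on the wild-type arrays, again without overlap. That difference, -0.64 ± 0.37 on the log2 scale, was not called (limma adjusted p = 0.659).

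**Figure D1:**
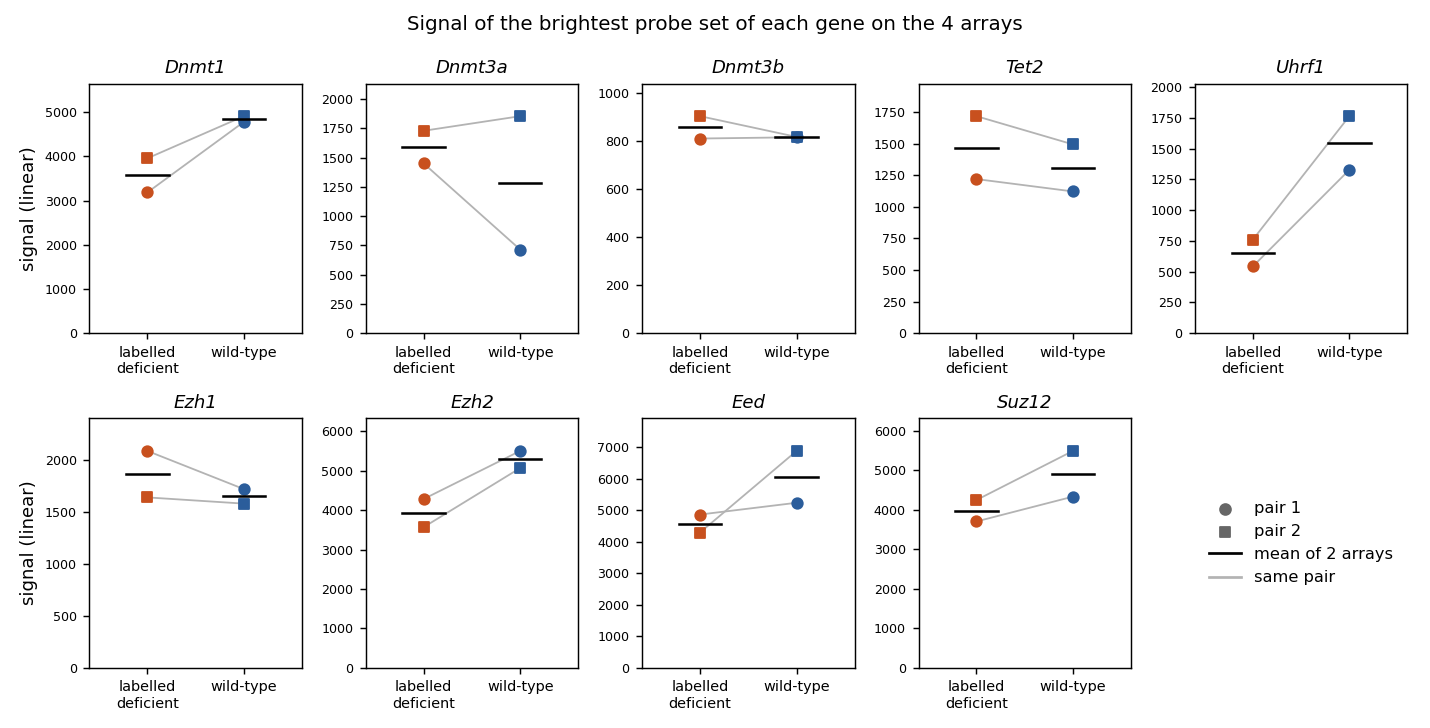
Signal (linear scale, each vertical axis from 0) of the brightest probe set of the 9 measured genes, with the labelled-deficient arrays at left in orange and the wild-type arrays at right in blue. Circles are pair 1, squares are pair 2, black bars are means of 2 arrays and grey lines join arrays of a pair; for Uhrf1, Dnmt1, Ezh2, Eed and Suz12 both labelled-deficient arrays lie below both wild-type arrays.

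Dnmt1, the maintenance methyltransferase that Uhrf1 recruits, was read by 3 probe sets that all lay lower on the labelled-deficient arrays in both pairs. The brightest, 1435122_x_at, read 3182 and 3955 on the labelled-deficient arrays and 4781 and 4910 on the wild-type arrays. Probe set 1422946_a_at read 2497 and 2604 there, against 2913 and 3727 for wild-type. Probe set 1447877_x_at read 1609 and 2101 on the labelled-deficient arrays and 2595 and 2759 on the wild-type arrays. The groups overlapped on none of the 3 probe sets, but the steps were small. The log2 difference of the brightest was -0.45 ± 0.20 (SE, n = 2 each; limma adjusted p = 0.409, and 0.0753 with the pair as a block), and its 95% interval ran from -0.91 to 0.014. The other probe sets gave -0.37 ± 0.23 and -0.54 ± 0.24. Probe sets whose names end in _x_at can share probes with other transcripts, and those ending in _s_at can read more than 1 gene.

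The de novo methyltransferase genes did not give a common reading. Dnmt3a had 5 measured probe sets that disagreed in sign. Its brightest, 1423063_at, read 1450 and 1730 on the labelled-deficient arrays and 713 and 1855 on the wild-type arrays, so that the wild-type arrays alone spanned all 4 values. The log2 difference of 0.45 ± 0.41 (limma adjusted p = 0.791) was made of 1.01 within pair 1 and -0.10 within pair 2, and it stood at -0.23 without wild-type replicate 1. The value of pair 2 minus pair 1, with genotype as a covariate, was 0.80 ± 0.21 for this probe set (limma adjusted p = 0.0311). Among the brightest probe sets of the 9 genes it alone passed between the pairs, where 6.78% of all genes did. Tet2 and Uhrf1 came next (limma adjusted p = 0.123 and 0.160). Over every probe set the adjusted p of 1423063_at was 0.158 (limma). The other Dnmt3a probe sets gave 0.12, -0.13, -0.48 and -0.63, so they did not share the value of this one. Why they differ was not tested.

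Another Dnmt3a probe set, 1460324_at, read 1235 and 1301 on the labelled-deficient arrays and 906 and 1022 on the wild-type arrays, the 1 member probe set with both labelled-deficient arrays above both wild-type arrays. Its log2 difference was 0.39 ± 0.24 (limma adjusted p = 0.703). Probe set 1423064_at went the other way, at 131 and 55.5 on the labelled-deficient arrays and 168 and 142 on the wild-type arrays, which gave a log2 difference of -0.73 ± 0.42 (limma adjusted p = 0.665). The remaining 2 gave log2 differences of 0.053 and 0.15. Dnmt3b, the other de novo enzyme gene, read 811 and 904 on the labelled-deficient arrays and 816 and 818 on the wild-type arrays. Its log2 difference of 0.066 had a 95% interval of -0.47 to 0.61, and its dimmer probe set, at 230 and 238 against 349 and 194 on the wild-type arrays, overlapped as well.

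Of the genes whose products start demethylation, Tet2 read 1221 and 1720 on the labelled-deficient arrays and 1123 and 1496 on the wild-type arrays. The arrays of pair 2 were the higher ones in both genotypes, and the genotypes overlapped. The log2 difference was 0.16 (95% interval -0.46 to 0.78, limma adjusted p = 0.920), and the second Tet2 probe set gave 0.025. Tet3 had 1 probe set, which read 18.4 and 7.10 on the labelled-deficient arrays and 20.2 and 14.0 on the wild-type arrays. The probe set lay under the filter, so Tet3 has no test here.

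**Figure D2:**
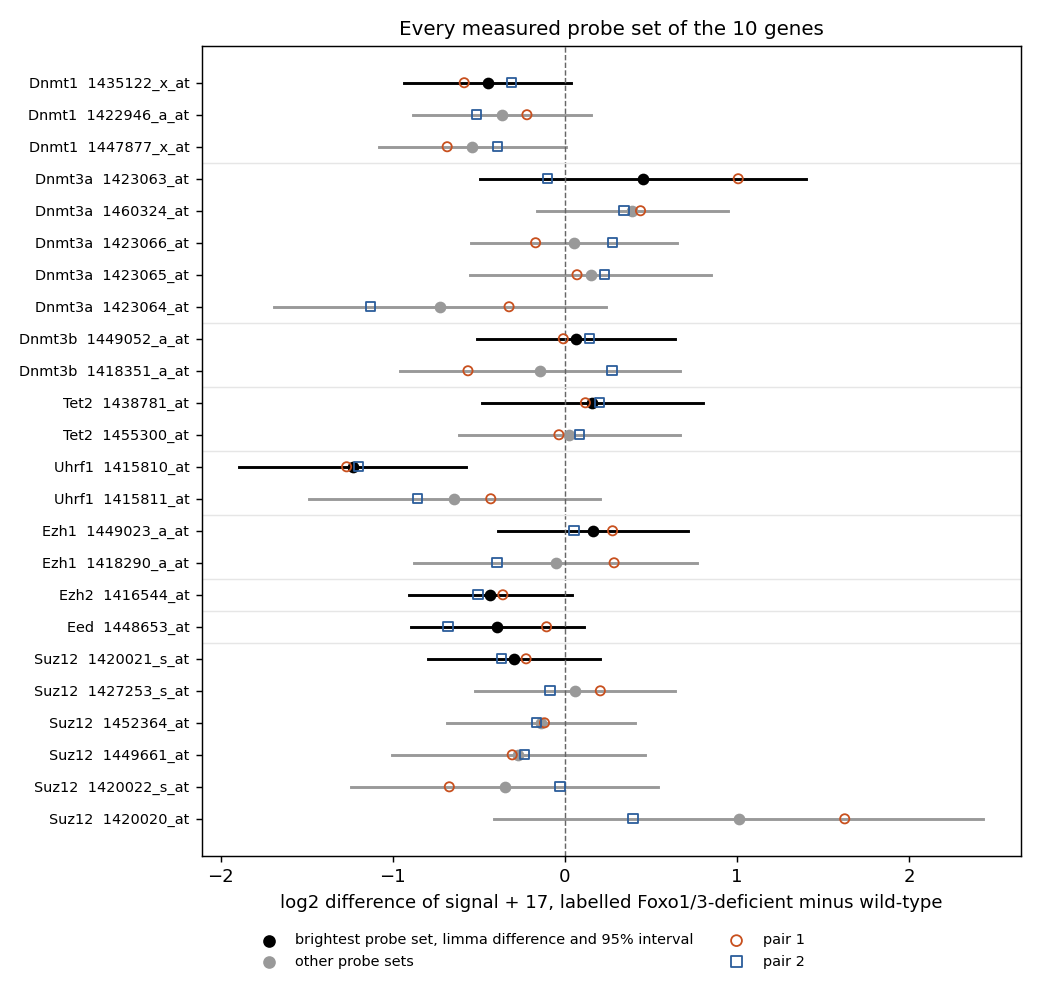
Log2 difference of signal + 17, labelled Foxo1/3-deficient minus wild-type, for the 24 measured probe sets, with limma 95% intervals from the fit over all 27022 probe sets. Black marks the brightest probe set of a gene and grey the others, open circles are pair 1 and open squares pair 2; the interval of 1 probe set, Uhrf1 1415810_at, lies wholly below 0.

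Among the PRC2 genes, the catalytic subunit gene Ezh2 had 1 probe set, which read 4285 and 3570 on the labelled-deficient arrays and 5505 and 5071 on the wild-type arrays. Both labelled-deficient signals lay below both wild-type signals. The log2 difference was -0.43 ± 0.19 (SE, n = 2 each), with a 95% interval of -0.88 to 0.018 and a limma adjusted p of 0.417, or 0.0831 with the pair as a block. The differences within the pairs were -0.36 and -0.50. Its paralogue Ezh1, which is known as the form that persists in cells that do not divide, read 2084 and 1637 on the labelled-deficient arrays and 1717 and 1577 on the wild-type arrays. That difference of 0.17 had a 95% interval of -0.36 to 0.69. A dimmer Ezh1 probe set, 1418290_a_at, gave -0.055, and the other 2 Ezh1 probe sets were under the filter.

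Eed, the subunit that binds the finished mark, read 4863 and 4293 on the labelled-deficient arrays and 5237 and 6883 on the wild-type arrays. The step was uneven, at -0.11 within pair 1 and -0.68 within pair 2, and the log2 difference was -0.39 ± 0.21 (limma adjusted p = 0.529). A second Eed probe set lay under the filter. Suz12, the scaffold subunit, had 6 measured probe sets. The brightest, 1420021_s_at, read 3700 and 4242 on the labelled-deficient arrays and 4329 and 5485 on the wild-type arrays, which gave a log2 difference of -0.30 ± 0.21 (limma adjusted p = 0.678). The others ranged from -0.35 to 1.01, and 4 of the 6 were lower in both pairs. The value of 1.01 belonged to the dimmest, 1420020_at, at 101 and 177 on the labelled-deficient arrays and 21.1 and 130 on the wild-type arrays, so that the direction of Suz12 depended on the probe set read.

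Counted over genes, 5 of 9 were lower within both pairs on the labelled-deficient arrays, where 31.8% of all genes were, and 2 of 9 were higher within both, where 30.8% of all genes were. Both labelled-deficient arrays lay below both wild-type arrays for 5 of 9 genes, where this held for 21.1% of all genes, and above them for 0 of 9, where it held for 20% of all genes. Over the 24 measured probe sets, 12 were lower and 5 higher within both pairs, where 27.2% and 32% of all probe sets were. Wholly lower were 10 and wholly higher 1, where 17.5% and 20.9% of all probe sets were. Probe sets of 1 gene are not separate observations, and Suz12, Dnmt1 and Uhrf1 gave 4, 3 and 2 of the 12. No probe set of the 24 passed limma's threshold over every probe set (1 at an unadjusted p under 0.05, and 1 with the block), where 1.16% of all probe sets passed without the block, 5.13% passed with it and 10.6% had an unadjusted p under 0.05. The only member probe set that changed at least 2-fold in both pairs was the bright one of Uhrf1.

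**Figure D3:**
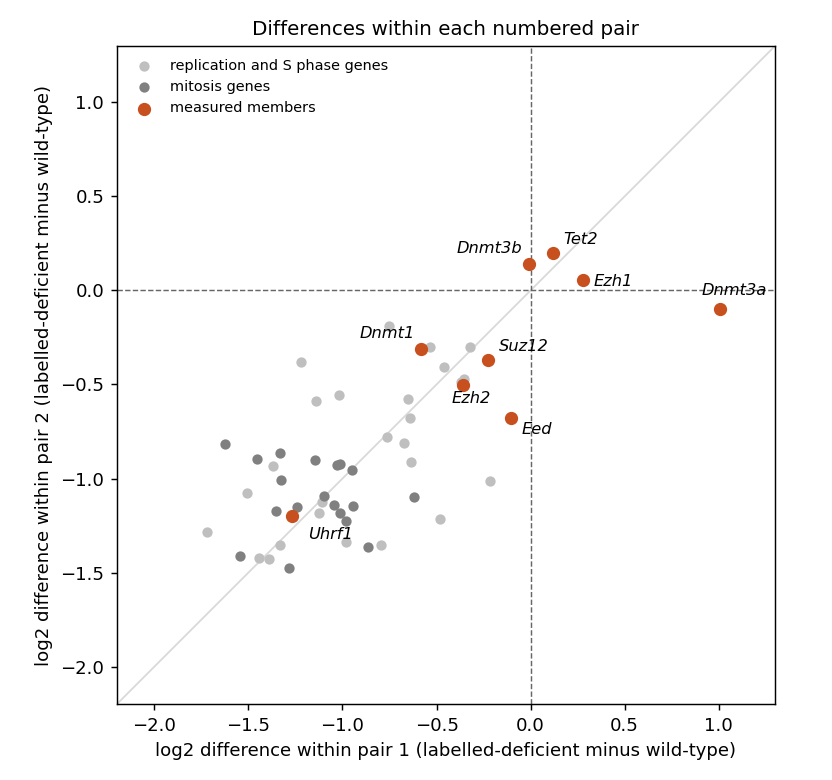
Log2 difference of signal + 17 within pair 1 (horizontal) and within pair 2 (vertical), labelled-deficient minus wild-type, for the 9 measured members in orange, replication and S phase genes in light grey and mitosis genes in dark grey. Uhrf1 (-1.27 and -1.20) lies within the cloud of grey points, and Tet2, Dnmt3b, Ezh1 and Dnmt3a lie outside it. Eed (-0.11 and -0.68) also lies outside, nearer 0 within pair 1 than any grey point.

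Genes of cell division were lower on the same arrays, and their values stand beside those of the members for that reason. The lists of such genes were chosen with earlier results of these data known, so their counts are a description only. Of 26 DNA replication and S phase genes, 4 were called lower and 0 higher by limma, where 1.35% of all genes were called lower and 1.21% higher, all 26 lay below 0 within both pairs, and the median log2 difference was -0.79. The 4 were Rrm2 and Rrm1, subunits of ribonucleotide reductase (2.84-fold and 2.23-fold lower), the thymidine kinase gene Tk1 (2.70-fold lower) and the cyclin gene Ccne2 (2.45-fold lower). Among 19 mitosis genes, whose median was -1.10, 0 rose and 6 fell, among them the kinase genes Aurkb (2.79-fold lower) and Cdk1 (2.60-fold lower) and the Ki-67 gene Mki67 (2.03-fold lower), a standard proliferation marker. Blocked by pair, 19 of the 26 and 19 of the 19 fell, where 6.36% of all genes fell and 5.23% rose. These calls, though not the direction of either median, depended on the setting. Without the intensity trend 0 of either list passed, and without the filter 0 replication genes and 1 mitosis gene did. Without labelled-deficient replicate 1, 0 of either list passed, without labelled-deficient replicate 2 it was 1 replication gene and 3 mitosis genes, without wild-type replicate 1 it was 4 and 11, and without wild-type replicate 2 it was 2 and 6.

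The difference of Uhrf1 (-1.23) lay among those of the replication genes, which ran from -1.50 to -0.31. Dnmt1 (-0.45) and Ezh2 (-0.43) lay near Pcna, the sliding clamp of replication, at -0.41 ± 0.17 (limma adjusted p = 0.371). Both fell short of the helicase subunit gene Mcm5, at -0.79 ± 0.24 (limma adjusted p = 0.179), and of the replication median of -0.79. Eed (-0.39) lay toward the weak end of the replication range, and Suz12 (-0.30) lay just outside it. The summed signal of the 26 replication genes was 55697 and 65530 on the labelled-deficient arrays and 93192 and 101009 on the wild-type arrays, and that of the 19 mitosis genes was 23864 and 29558 against 54955 and 59033 on the wild-type arrays. What part the share of dividing cells has in the members' values was not tested.

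Partners of the 10 genes were grouped by role. Among 13 tested DNA methylation partners 1 gene fell and 0 rose (limma), where 2.57% of all genes passed, and their log2 differences had a median of 0.037. The gene that fell was Hells, a chromatin remodeller needed for DNA methylation, at 1164 and 1109 on the labelled-deficient arrays and 2315 and 2739 on the wild-type arrays (2.20-fold lower, log2 -1.14 ± 0.22, limma adjusted p = 0.0419). Without labelled-deficient replicate 1, labelled-deficient replicate 2 or wild-type replicate 2 its adjusted p was 0.157, 0.165 and 0.108. Hells also missed the threshold without the filter (limma adjusted p = 0.0811), without the intensity trend (0.106) and on the mean of its probe sets (log2 -0.81, 0.109). With the pair as a block 3 fell and 1 rose, where 11.6% of all genes passed, the other falls being Apobec1, a cytidine deaminase (log2 -1.23, limma adjusted p = 0.00271 with the block and 0.0627 without), and Mbd2, a reader of methylated DNA (log2 -0.52), and the rise being Zbtb4, another reader (log2 0.59). Apobec1 also passed without the block after quantile normalization (limma adjusted p = 0.0495) and on the mean of probe sets (0.0352). Uhrf2, the paralogue of Uhrf1, read 1514 and 1176 on the labelled-deficient arrays and 914 and 1041 on the wild-type arrays, a step of 0.44 ± 0.24 in log2 that was not called (limma adjusted p = 0.544).

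Of 7 PRC2 accessory subunit genes 0 passed in limma, also at an unadjusted p under 0.05 and with the block. Aebp2 stood at log2 -0.42 ± 0.21, Jarid2, which helps PRC2 bind chromatin, at 0.32 ± 0.24, and the histone-binding subunit genes Rbbp4 and Rbbp7 at -0.041 and -0.047. Of 19 genes of PRC1, the complex that ubiquitinates histone H2A, 0 passed in limma (2 at an unadjusted p under 0.05, where 13% of all genes were), and their median was -0.0053. With the pair as a block 1 fell and 1 rose among them, a share no higher than the 11.6% of all genes that passed in that fit. Kdm2b, which brings a form of PRC1 to CpG islands, fell in that fit, at 5494 and 6809 on the labelled-deficient arrays and 8762 and 10403 on the wild-type arrays (log2 -0.64, limma adjusted p = 0.00956 with the block and 0.172 without). Rnf2, a catalytic subunit, rose in it, at 4735 and 4833 on the labelled-deficient arrays and 3318 and 3423 on the wild-type arrays (log2 0.50, limma adjusted p = 0.0381 with the block and 0.268 without). Of 5 genes whose products remove Polycomb marks 0 passed in limma, also at an unadjusted p under 0.05 and with the block, and the histone H3 demethylase gene Kdm6b stood at 0.27 ± 0.21.

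**Figure D4:**
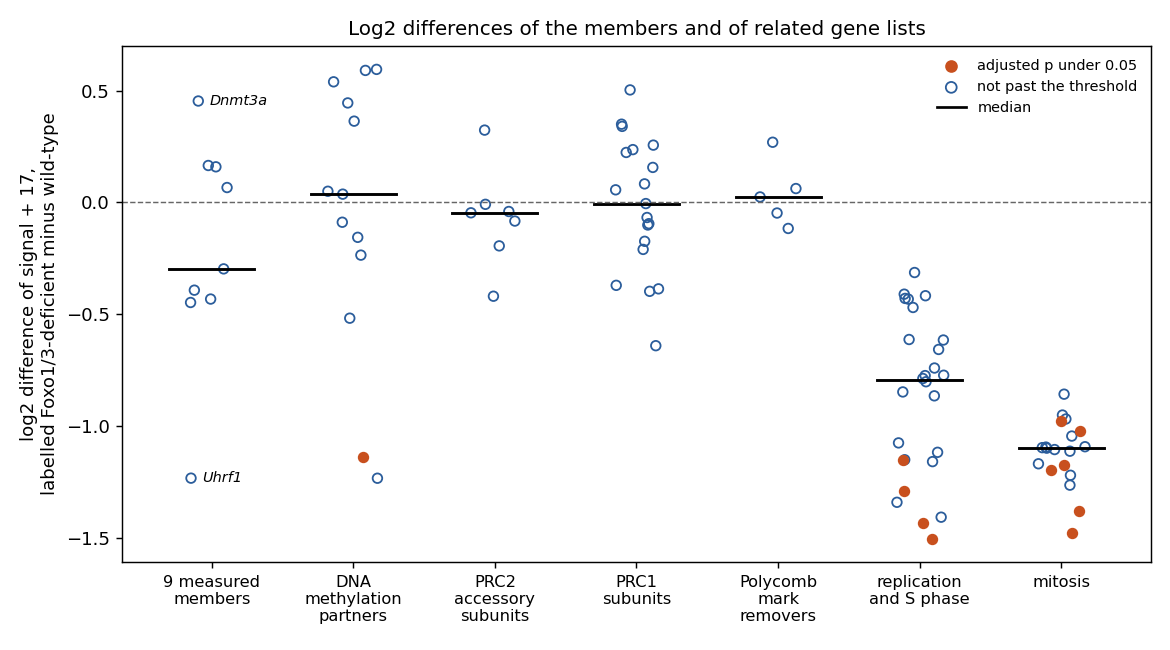
Log2 difference of signal + 17, labelled Foxo1/3-deficient minus wild-type, for the 9 measured members and the tested genes of 6 related lists. Each point is a gene, filled orange where the limma adjusted p was under 0.05, and black bars are medians (-0.30 for the members, -0.79 for replication and S phase genes and -1.10 for mitosis genes).

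Promoters of the 10 genes were looked at after some members and the replication genes had been seen lower on the same arrays. Whether these members share a cause with the replication genes was not tested. RefSeq promoter windows on GRCm38.p6, from 250 bases before to 50 after each start, were at hand for 15 starts of the 10 genes and searched on both strands for the E2F consensus (TTTCCCGC, TTTCGCGC, TTTGCCGC or TTTGGCGC), the site of a factor family that is known to drive S phase genes. They were also searched for the FoxO core GTAAACA. Both motifs were chosen with the results known. The E2F consensus was found in 1 window each of Uhrf1, Dnmt1, Ezh2 and Suz12, 4 of the 15 windows, and in 2.26% of all 32851 windows. Every E2F word contains CG, the share over all windows was not matched for CG content, and starts of 1 gene count separately. Enrichment was not tested. It was not in the windows of Dnmt3a, Dnmt3b, Tet2, Tet3, Ezh1 or Eed. The FoxO core was in 1 of the 15 windows, that of Eed, and in 3.65% of all windows. Outside the 10 genes only Hells was looked up by name, with its fall known, and no other partner gene or replication gene was. A match is a description of the letters and not of a bound site.

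The window of the second of 2 Uhrf1 starts, upstream part, chr17:56304063-56304312, + strand, holds the E2F consensus 185 bases before the start. The third of 3 Dnmt1 starts has it on the opposite strand 219 bases before the start, shown in chr9:20952809-20952868, - strand. The same window holds a second match on the strand of the gene, beginning at base 34 of the transcript, shown in chr9:20952574-20952603, - strand. Suz12 has it 219 bases before its start, shown in chr11:79992861-79992920, + strand. Ezh2 has it beginning at base 4 of the transcript, shown in chr6:47595009-47595038, - strand. The FoxO core of Eed lies 150 bases before the start, shown in chr7:89981094-89981152, - strand, and Hells, the partner gene that fell, has the E2F consensus 62 bases before its start, shown in chr19:38930902-38930961, + strand. Each is given 5′ to 3′ on the strand of the gene, with the match in capitals:
Uhrf1: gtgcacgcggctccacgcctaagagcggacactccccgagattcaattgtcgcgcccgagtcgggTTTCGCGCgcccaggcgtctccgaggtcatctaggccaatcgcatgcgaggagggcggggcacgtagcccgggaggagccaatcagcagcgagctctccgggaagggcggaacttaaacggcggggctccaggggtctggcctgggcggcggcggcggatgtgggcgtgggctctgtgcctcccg
Dnmt1: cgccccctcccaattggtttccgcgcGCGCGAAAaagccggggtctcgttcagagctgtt
Dnmt1, second match: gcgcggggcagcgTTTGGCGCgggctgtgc
Suz12: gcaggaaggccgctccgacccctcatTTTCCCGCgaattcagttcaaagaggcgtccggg
Ezh2: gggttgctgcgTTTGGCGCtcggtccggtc
Eed: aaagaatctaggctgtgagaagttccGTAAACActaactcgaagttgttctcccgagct
Hells: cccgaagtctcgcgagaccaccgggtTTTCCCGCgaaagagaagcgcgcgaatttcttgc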

How the data were processed

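The assay was a 1-colour Affymetrix array of biotin-labelled total RNA, per the labels. MAS5 made the deposited intensities, per the submitters' processing notes, and they are linear signals per probe set. The labels used here give no MAS5 version or settings. Since the 2% trimmed mean was 500.003 on each of the 4 arrays, the values were not rescaled, and log2 signals correlated between arrays at 0.960 to 0.972 across probe sets. Detection calls were not used.

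Tests ran on log2(signal + 17), 17 being the rounded 25th percentile of all values, so a fold change understates the change of dim genes. After 64 controls and probe sets under the 40th percentile of mean log2 signal were left out, 27022 probe sets remained. Probe sets with 1 gene symbol gave 12115 genes, each read from its brightest probe set. limma 3.58.1 in R 4.3.3 (lmFit, eBayes with an intensity trend, two-sided, Benjamini-Hochberg over all features, threshold 0.05) compared 2 arrays with 2, with 2 residual degrees of freedom. An exact permutation test of 2 against 2 cannot go below p = 0.333, so the p-values lean on the shared variance model, and the number of arrays limits the precision.

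The titles call the number a pair. Deviations from the group means correlated between same-numbered arrays at 0.367 across genes. A fit blocked by pair was the alternative, and it leaves fewer residual degrees of freedom than the fit without the block.

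The members and the gene lists were chosen with earlier results of these data known. Named genes were the members, the genes of each list past the threshold or of largest difference, Foxo1, Foxo3, Mki67, Pcna and Mcm5; Uhrf2, Rbbp4, Rbbp7, Nkg7, Ncr1 and the genes called with the block were added after their values were seen.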

Additional observations from a re-analysis of the deposited data

How the results depend on the processing

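Uhrf1, Dnmt1, Ezh2 and Eed kept their direction under all 13 alternatives. Among the fits on all arrays, Uhrf1 passed only with the pair as a block (log2 -1.23). It missed the threshold in the main fit (limma adjusted p = 0.0670) and in every other alternative on all arrays. The adjusted p of Uhrf1 was highest without the filter (limma, 0.131), without the intensity trend (0.133) and on the mean of its probe sets (log2 -0.94, 0.123). The remaining alternatives on all arrays gave 0.0629 to 0.0713 (limma). Leaving out 1 array gave -1.47 to -0.996, with -1.44 without wild-type replicate 1. Each fit without an array has a group of 1, assumed to vary as the other group does. Members called were 1 with the block, over genes and over probe sets, and 0 to 1 over genes when 1 array was left out. The members' median was -0.039 on the mean of a gene's probe sets.

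Genes called lower and higher were 770 and 634 with the block, 44 and 45 without the filter, and 54 and 57 without the intensity trend. Leaving out 1 array gave 82 to 266 lower and 67 to 278 higher. Probe sets called lower and higher were 705 and 682 with the block, 29 and 38 without the filter, and 51 and 47 without the trend, and leaving out 1 array gave 98 to 187 and 110 to 368.

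Results not called in limma changed sign, among them Dnmt3a (0.45), Aebp2 (-0.42), Jarid2 (0.32) and Suz12 (-0.30). On the mean of a gene's probe sets Dnmt3b stood at -0.039 and Suz12 at 0.00174, and on the first listed one Dnmt3b at -0.14, Ezh1 at -0.055, Suz12 at 1.01, Aebp2 at 0.032 and Jarid2 at -0.0085. With quantile normalization Foxp3 stood at 0.023 and Tet2 1455300_at at -0.031, and the PRC1 median at 3.42e-05, against 0.025 with the filter at the 60th percentile. When 1 array was left out, the ranges were -0.23 to 1.13 for Dnmt3a, -0.085 to 0.40 for Tet2, -0.034 to 0.17 for the PRC1 median, -0.54 to 0.25 for Dnmt3b 1418351_a_at, -0.20 to 0.32 for Suz12 1427253_s_at, -0.82 to 0.12 for Suz12 1420022_s_at, -0.0074 to 0.34 for Ezh1, -0.11 to 0.023 for the PRC2 accessory median, -0.13 to 0.43 for Dnmt3a 1423065_at, -0.12 to 0.23 for Dnmt3a 1423066_at, -0.056 to 0.11 for Tet2 1455300_at, -0.28 to 0.17 for Ezh1 1418290_a_at, -0.010 to 0.14 for Dnmt3b, -0.082 to 0.021 for Foxp3 and -0.059 to 0.12 for the Polycomb mark removers median. The cause was not tested.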
